A study of Mus musculus with 12 samples.

Results

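Group 2 innate lymphoid cells (ILC2s) that lacked Rag1 were compared with wild-type (WT) ILC2s 8 weeks after bone marrow transplant, in 6 RNA-seq libraries of the 12 in the study, 3 of each genotype. The 6 were taken by their titles and fitted alone, on autosomal genes. Per the labels, irradiated CD45.1 recipients (950 cGy) of the C57BL6 strain were given equal parts of Rag1-/- marrow (CD45.2) and WT marrow (CD90.1), and ILC2s of each donor were sorted from their skin-draining lymph nodes. All groups had received IL-33 on 7 days before harvest, at 30 ng into each cheek and 240 ng into the peritoneum, so each library describes IL-33-expanded cells. The labels name a CD90.1 marker for the WT libraries and CD90.2 for the knockout libraries. They do not give the age of the mice, the part of Rag1 that the knockout allele lacks, or whether each replicate is its own animal. The p-values therefore measure only the spread between these samples, which may be technical. The other 6 libraries, of the same 2 genotypes at 20 weeks by the sample labels (the series text gives 12), served as a second set of libraries for the genes named at 8 weeks.

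ILC2s are tissue lymphocytes that carry no rearranged antigen receptor and release type 2 cytokines such as IL-5 and IL-13 when they sense alarmins such as IL-33 through its receptor ST2. GATA3 is their defining transcription factor. Rag1 and Rag2 form the recombinase that cuts DNA to assemble antigen receptor genes in B and T cells. Some innate lymphocyte precursors pass through a stage in which the Rag genes are active, and the design asks whether that history leaves a mark on the mature cell.

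Estimated reads per library were 24011859, 11433625 and 17121558 in WT replicates 1 to 3 and 28618535, 21249315 and 16397951 in knockout replicates 1 to 3. Of 26589 autosomal genes, 12423 had enough reads to be tested. Levels are given in CPM, autosomal reads scaled to a common library total after trimmed-mean (TMM) scaling, and differences as log2 fold changes, knockout against WT, with a standard error (SE). The median log2 fold change of all genes tested was 0.02, and it was 0.01 to 0.02 with the other scalings tried. Such scaling itself sets most genes near 0, so this value is not a result about genotype.

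Rag1 itself was at 0 reads in each WT library. Knockout replicates 1 to 3 held 0, 14.5 and 12.2 estimated Rag1 reads, or 0, 0.671 and 0.962 CPM. At 20 weeks the WT libraries again held 0 Rag1 reads each and the knockout libraries 13.2, 18.4 and 10.8, so reads were found in 5 of 6 knockout libraries and in 0 of 6 WT libraries of the study. The direction goes against the labels: at 8 weeks, against a floor of 3 reads per WT library, the knockout mean was at least 2.78-fold higher. Rag1 was too low to be tested at 8 weeks, and all its reads were assigned to its single transcript, so they cannot be placed inside or outside the deleted part. The gene B230118H07Rik overlaps Rag1 on the same strand, with 6.12, 6.78 and 3.84 CPM in WT and 13.3, 16.1 and 19.2 CPM in knockout libraries, and how reads were divided between overlapping genes was not tested. The labels were used as given, and "knockout" below means the libraries labelled so. Rag2, the partner subunit, lay at 2.87, 5.88 and 3.77 CPM in WT and at 2.13, 3.02 and 3.57 CPM in knockout libraries (log2 fold change -0.51, SE 0.46, adjusted p = 1, edgeR quasi-likelihood test).

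ILC2 signature genes had reads in the libraries of both genotypes, and Gata3 and Il1rl1, which mark the type, overlapped between the groups. Gata3 lay at 809, 1130 and 599 CPM in WT and at 859, 751 and 1310 CPM in knockout libraries. Il1rl1, which encodes ST2, lay at 179, 160 and 290 CPM in WT and at 194, 215 and 240 CPM in knockout libraries. For these genes, and for the activation receptor genes Klrg1 and Icos, the groups overlapped, with log2 fold changes of 0.20 (SE 0.35), 0.04 (SE 0.29), 0.13 (SE 0.31) and 0.04 (SE 0.36). Ptprc, which encodes CD45, also overlapped between the groups (log2 fold change -0.07, SE 0.36). All 5 had an adjusted p of 1 in edgeR's quasi-likelihood test, which does not show that the levels were equal. Of 24 fixed genes of ILC2 identity, 24 were tested and 0 called by edgeR. At an unadjusted p under 0.05, 1 was higher (Ets1) and 1 lower (Il18r1), and the median log2 fold change was 0.06.

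For the cytokine genes fixed by name, the groups overlapped. Il5, the eosinophil growth factor gene, lay at 175, 142 and 149 CPM in WT and at 170, 186 and 114 CPM in knockout libraries (log2 fold change 0.02, SE 0.26). Il13, the gene of the main tissue effector cytokine, lay at 16.3, 10.9 and 14.1 CPM in WT and at 34.9, 21.5 and 12.3 CPM in knockout libraries. Its log2 fold change was 0.73 (SE 0.40), with knockout replicate 3 inside the WT range and the other 2 knockout libraries above it. Areg, the gene of the repair factor amphiregulin, and Csf2, that of GM-CSF, had log2 fold changes of -0.01 (SE 0.38) and -0.55 (SE 0.44). Each of these had an adjusted p of 1 in edgeR's test, which does not show that the levels were equal.

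Before the genotypes are compared further, 2 of the 6 libraries have to be described, because they stood apart from the rest. In a principal component analysis of log2 CPM over the 12423 genes, the first component (35.6% of variance) placed WT replicate 2 at 89.5 and the other 5 libraries between -41.3 and 12.7. The second (31.9%) placed knockout replicate 3 at 86.1 and the others between -36.4 and 13.6. Neither component separated the genotypes. On average a WT library correlated with the other WT libraries at 0.905 to 0.935 across genes and with the knockout libraries at 0.908 to 0.949. For a knockout library the values were 0.915 to 0.946 and 0.915 to 0.95.

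**Figure D1:**
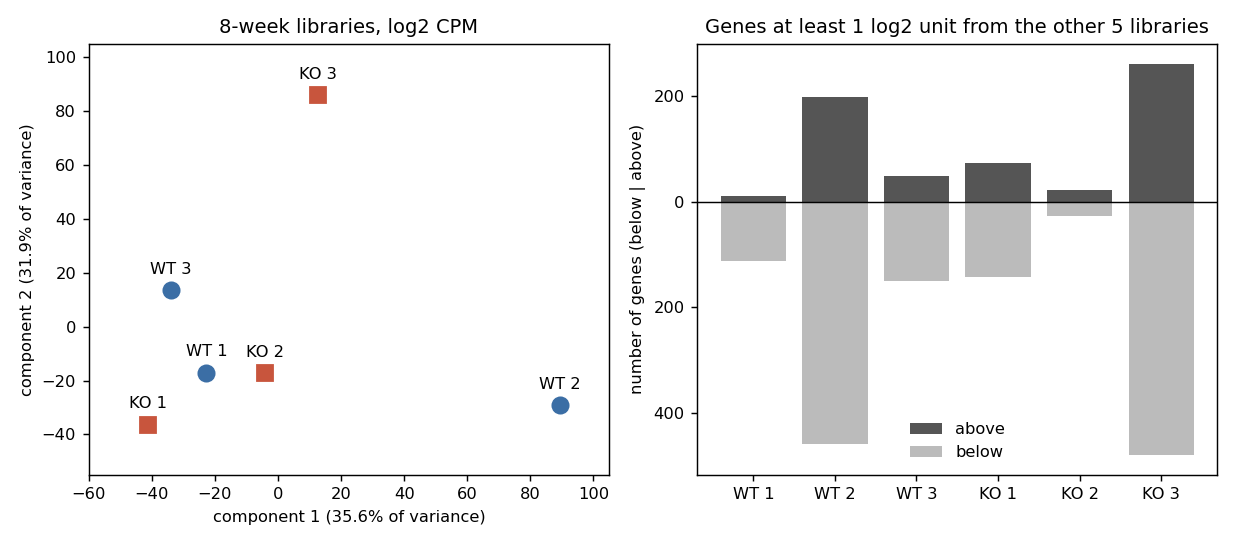
Left, the 6 libraries of 8 weeks on the first and second principal components of log2 CPM (circles WT, squares knockout, KO), with WT 2 at 89.5 on the first and KO 3 at 86.1 on the second. Right, the number of genes in which each library lay at least 1 log2 unit above (dark) or below (light) each of the other 5; WT 2 and KO 3 have the tallest bars on both sides.

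WT replicate 2 had the fewest reads and lay at least 1 log2 unit above each of the other 5 libraries in 198 genes and below them in 459. Of the 459, 136 (29.6%) were annotated as pseudogenes, against 7.7% of all genes tested, and 118 had no read at all in this library. Gm10182 was at 0 in it and at 82.8 to 346 CPM in the others, and Gm3788 at 0.189 against 156 to 235 CPM. Among protein-coding genes, Lilrb4a, which encodes an inhibitory immunoglobulin-like receptor, was at 0 against 42.8 to 102 CPM. On the high side, Elfn1 stood at 80.2 CPM against 2.41 to 12.6, and the pseudogene Gm6430 at 80.9 against 0 to 1.01. Processed pseudogenes share most of their sequence with a parent gene, and the part of reads divided between such copies was not tested.

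Knockout replicate 3 stood apart mainly in protein-coding genes. It lay at least 1 log2 unit above the other 5 libraries in 261 genes and below them in 480, of which 4.6% and 12.5% were pseudogenes. Of its reads 25.28% lay in the top 10 genes, while in the other libraries that share was 9 to 15.47%, and Actb, the gene of cytoplasmic beta-actin, alone took 18.83% against 3.04 to 8.54%. The co-chaperone gene Ptges3 stood at 4530 CPM against 618 to 1110. Csnk2a1, which encodes the catalytic subunit of casein kinase 2, stood at 653 CPM against 75.1 to 142. Cd28, the costimulatory receptor gene, stood at 14 CPM against 0.792 to 2.39, and Cebpb, a transcription factor gene, at 11.5 CPM against 0.567 to 2.15. In the other direction, Rps12, a ribosomal protein gene, was at 0 against 10.4 to 139 CPM, and Preb, Abhd18 and Cog8 were at 0 against at least 3.23 CPM in each other library. In all, 139 of the 480 had no read in knockout replicate 3.

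The position of both libraries did not depend on the pseudogenes. With the 11368 protein-coding genes alone, knockout replicate 3 lay at 70.9 on the first component (35.7% of variance) and WT replicate 2 at 71.3 on the second (30.6%). When limma-voom estimated 1 weight per library from the data, these libraries received the lowest weights, 0.357 and 0.452, while WT replicate 1 and knockout replicate 2 received 2.751 and 3.017. WT replicate 3 and knockout replicate 1, at 0.821 and 0.912, lay between. The share of mitochondrial reads was lowest in WT replicate 2, at 0.249%.

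Which pathways set these libraries off was read from fixed gene lists, as the median over a list of each gene's log2 CPM minus its mean over the 6 libraries. Knockout replicate 3 was lowest for interferon-stimulated genes (median -0.67), MHC class II genes (-0.64) and ribosomal protein genes (-0.52), and highest for cell cycle genes (0.50) and ETS factors (0.53). Isg15, an antiviral ubiquitin-like protein gene, shows this: it was at 7.55 CPM in knockout replicate 3 and at 52.7 and 33.1 CPM in the other knockout libraries. Knockout replicate 3 was also highest for recombinase and end joining genes (0.37), and lowest for costimulatory and inhibitory receptor genes (-0.46). WT replicate 2 was lowest for cell cycle genes (-0.37), heat shock and unfolded protein response genes (-0.44) and recombinase and end joining genes (-0.43). It was highest for Notch pathway genes (0.38). Mki67, the proliferation marker gene, lay at 156, 73.2 and 261 CPM in WT and at 153, 137 and 240 CPM in knockout libraries, and the groups overlapped. For interferon-stimulated genes the WT libraries also differed among themselves, with replicates 1 and 3 at 0.43 and -0.40. None of the 23 interferon-stimulated and 29 cell cycle genes tested reached an unadjusted p under 0.05 between genotypes.

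**Figure D2:**
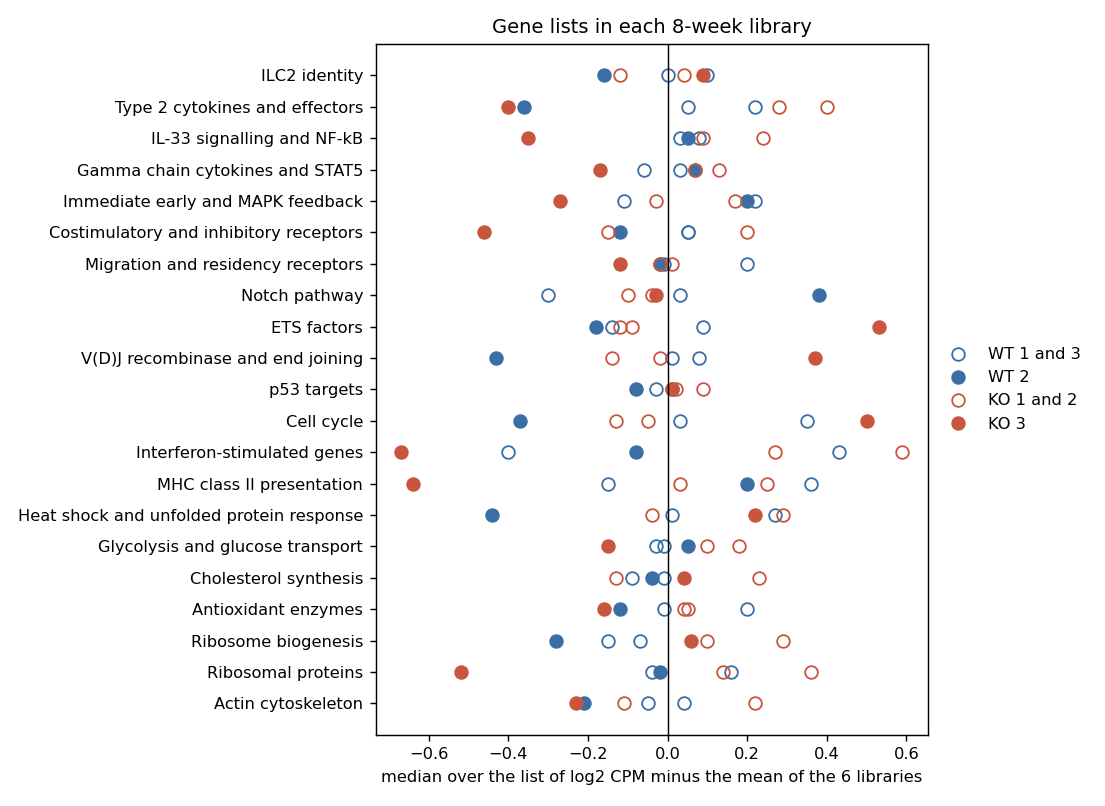
Each row is a gene list and each point 1 library of 8 weeks: the median over the list's tested genes of log2 CPM minus the mean of the 6 libraries (x axis, log2 units; blue WT, red knockout, filled WT 2 and KO 3). KO 3 is the leftmost point for interferon-stimulated genes (-0.67), MHC class II (-0.64) and ribosomal proteins (-0.52), and the rightmost for cell cycle (0.50) and ETS factors (0.53).

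With all 6 libraries, edgeR's quasi-likelihood test called 5 of 12423 genes (0.0402%) at a Benjamini-Hochberg adjusted p under 0.05. One, Nefh, was higher in knockout cells (0.00805% of genes), and 4, Fmo1, Gm9864, Capn11 and Adamts13, were lower (0.0322%). The unadjusted p was under 0.05 in 214 genes (1.72%), of which 97 were higher (0.781%) and 117 were lower (0.942%). The groups of 3 did not overlap in 700 genes (5.63%), 358 higher (2.88%) and 342 lower (2.75%). For such a gene an exact permutation test of 3 against 3 libraries gives a p of 0.1. Lack of overlap alone therefore does not set a gene apart. Deviations of same-numbered libraries from their group means correlated across genes at 0.27, 0.189 and 0.101, against -0.212 to 0.054 for the other pairs. With replicate number as a block edgeR called 0 genes (270 at an unadjusted p under 0.05). DESeq2 called 38 genes (0.306%) on the same 6 libraries, 14 higher (0.113%) and 24 lower (0.193%). limma-voom called 4 (0.0322%), 1 higher (0.00805%) and 3 lower (0.0241%). With the spread estimated from all 12 libraries of the study, edgeR called 26 of 13831 genes for 8 weeks (0.188%), 12 higher (0.0868%) and 14 lower (0.101%).

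The only gene called higher was Nefh (ENSMUSG00000020396, chromosome 11, 4938754 to 4948064, GRCm38), which encodes the heavy neurofilament chain, a structural protein best known from axons. It had no read in any of the 3 WT libraries. In the knockout libraries it lay at 19.2, 11 and 17 CPM, from 556.9, 237.5 and 215.7 estimated reads of its single transcript, and both libraries that stood apart fell in with their own group. Against the floor of 3 reads per WT library the difference was at least 80.1-fold (adjusted p = 0.0354, edgeR). Its fitted log2 value rests on the prior count and is not a bound.

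Of the genes called lower, Fmo1 (ENSMUSG00000040181, chromosome 1, 162829561 to 162866610), which encodes a flavin-containing monooxygenase of xenobiotic metabolism, was the most abundant. It lay at 209, 142 and 205 CPM in WT and at 38.7, 34.7 and 32.9 CPM in knockout libraries. The WT libraries were all well above the knockout libraries, with WT replicate 2 the nearest to them (log2 fold change -2.39, SE 0.26, adjusted p = 0.0354, edgeR). Capn11 (ENSMUSG00000058626, chromosome 17, 45630204 to 45659325), a gene of the calpain family of calcium-dependent proteases, lay at 39.6, 35.9 and 33.6 CPM in WT and at 5.69, 4.02 and 2.61 CPM in knockout libraries. Its log2 fold change was -3.14 (SE 0.35, adjusted p = 0.0354, edgeR), and knockout replicate 3 was the lowest library.

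Adamts13 (ENSMUSG00000014852, chromosome 2, 26973416 to 27009628) is the gene of a plasma protease whose substrate is von Willebrand factor. It lay at 12, 18.3 and 15.9 CPM in WT and at 1.88, 2.03 and 1.54 CPM in knockout libraries (log2 fold change -3.05, SE 0.34, adjusted p = 0.0354, edgeR). Gm9864 (ENSMUSG00000052005, chromosome 2, 107595630 to 107600539), annotated as a pseudogene, lay at 35.5, 37 and 36.2 CPM in WT and at 6.03, 7.68 and 5.27 CPM in knockout libraries. Its log2 fold change was -2.51 (SE 0.28, adjusted p = 0.0354, edgeR), and as a pseudogene its estimate may hold reads of related copies. In each of the 4 genes 1 transcript carried at least 93.5% of the reads in both genotypes.

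**Figure D3:**
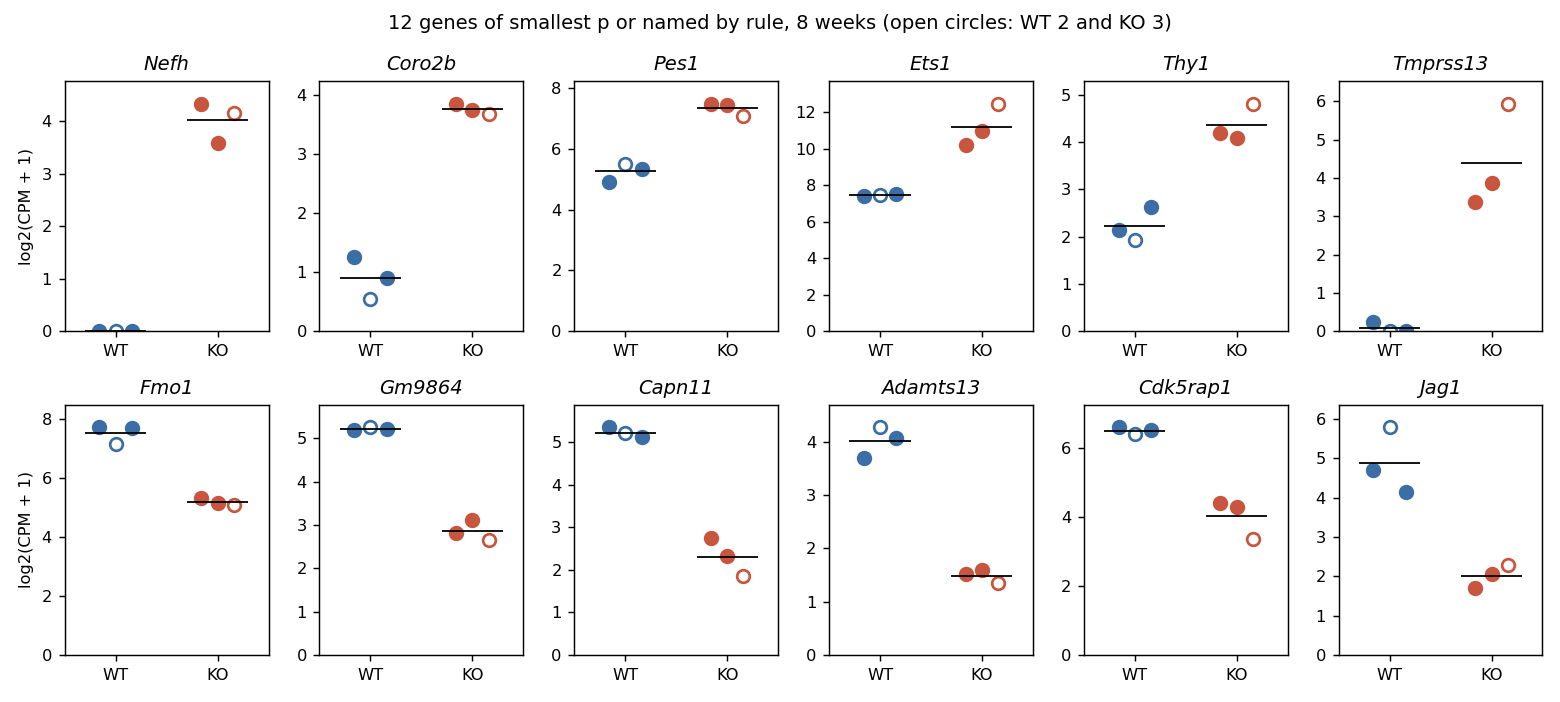
Level of 12 genes in each library of 8 weeks as log2(CPM + 1), each panel with its own axis from 0 (blue WT, red knockout, KO; horizontal bars are means of 3; open circles WT 2 and KO 3). In all 12 panels the groups do not overlap; the open circle of KO 3 is the highest for Ets1 (5660 CPM) and Tmprss13 (60.2 CPM), and that of WT 2 the highest for Jag1 (54.3 CPM).

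Next to these 5 lay 25 genes of next smallest p, which were not called by edgeR. Coro2b, which encodes a coronin that binds actin filaments, lay at 1.38, 0.458 and 0.871 CPM in WT and at 13.5, 12.4 and 11.9 CPM in knockout libraries (log2 fold change 3.72, SE 0.45, adjusted p = 0.0501, edgeR). Pes1, which encodes a nucleolar protein needed to build the large ribosomal subunit, lay at 29.1, 44.7 and 39.7 CPM in WT and at 178, 175 and 136 CPM in knockout libraries (log2 fold change 2.11, SE 0.27, adjusted p = 0.0609, edgeR). In both genes the spread within a genotype was small beside the gap between them, and the libraries that stood apart sat with their own group. When only the 11368 protein-coding genes were tested, edgeR called 7 genes: Coro2b, Pes1 and Cdk5rap1 were added, and Gm9864 was not among the genes tested. Cdk5rap1, which encodes an enzyme that modifies mitochondrial transfer RNA, lay at 94.9, 82.5 and 90.6 CPM in WT and at 20.2, 18.3 and 9.23 CPM in knockout libraries (log2 fold change -2.48, SE 0.33, adjusted p = 0.0747, edgeR).

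Gal3st1, the gene of the sulfotransferase that makes sulfatide, had no read in WT and 4.69, 2.86 and 1.45 CPM in knockout libraries, at least 15.3-fold higher (adjusted p = 0.199, edgeR). Gal3st1 is the neighbour of Pes1 on chromosome 11, and Nefh lies 0.96 Mb from Pes1. Around Nefh, 10 of 83 tested genes within 10 Mb (12%) had an unadjusted p under 0.05, against 1.72% of all genes tested. This region was picked for Nefh in these same data, and Pes1 and Gal3st1 are among the 10. The share was therefore partly set by that choice and only describes the region. The noncoding gene 4930556J24Rik overlaps Pes1 on the opposite strand and was also low in WT (0.704, 0.67 and 1.47 CPM) and high in knockout libraries (4.89, 5.14 and 5.04 CPM). The strand of the libraries is not given in the sources used here, so reads of these overlapping genes cannot be told apart by strand.

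The 250 bases before the start of Pes1 and of Gal3st1 are shown because these neighbours were both higher in knockout libraries, and those of Capn11 and Adamts13 because both were called lower. They come from RefSeq (GRCm38.p6), 5′ to 3′ on the strand of the gene, where 19 of the 30 genes had an entry. Nefh and Fmo1 were not among the 19. Letters of common lymphocyte motifs were searched on both strands in the 22 windows of these genes. The ETS letters were CCGGAAG. For GATA factors the letters AGATAA were used. The AP-1 motif was searched as TGANTCA. For STAT5 it was TTCNNNGAA, which can share bases with the ETS letters. In this order the motifs stood in 2, 1, 0 and 0 windows, against 6.9%, 10%, 6.7% and 7% of 32851 windows of the same length over all genes. The Slc38a6 window, shown last, holds the ETS letters 2 times, in capitals, once on each strand. A match is a description of letters and not a binding site. The Pes1 window is chr11:3963725-3963974 on the plus strand. The Gal3st1 window is chr11:3983386-3983635 on the plus strand. The Capn11 window is chr17:45659310-45659559 on the minus strand. The Adamts13 window is chr2:26973166-26973415 on the plus strand. The Slc38a6 window is chr12:73286598-73286847 on the plus strand.
Pes1: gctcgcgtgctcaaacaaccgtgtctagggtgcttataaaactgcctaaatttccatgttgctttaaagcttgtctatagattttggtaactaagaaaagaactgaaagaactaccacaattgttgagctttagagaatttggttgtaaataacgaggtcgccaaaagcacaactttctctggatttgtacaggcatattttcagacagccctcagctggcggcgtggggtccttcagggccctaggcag
Gal3st1: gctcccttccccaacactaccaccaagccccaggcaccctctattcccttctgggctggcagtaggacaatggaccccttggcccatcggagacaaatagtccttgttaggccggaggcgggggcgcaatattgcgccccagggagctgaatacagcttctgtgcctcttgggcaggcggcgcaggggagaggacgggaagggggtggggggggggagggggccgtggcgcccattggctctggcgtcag
Capn11: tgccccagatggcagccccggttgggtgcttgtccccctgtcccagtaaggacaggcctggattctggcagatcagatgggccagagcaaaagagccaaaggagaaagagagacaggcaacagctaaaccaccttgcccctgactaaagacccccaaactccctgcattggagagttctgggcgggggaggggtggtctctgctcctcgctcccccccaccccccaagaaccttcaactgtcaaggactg
Adamts13: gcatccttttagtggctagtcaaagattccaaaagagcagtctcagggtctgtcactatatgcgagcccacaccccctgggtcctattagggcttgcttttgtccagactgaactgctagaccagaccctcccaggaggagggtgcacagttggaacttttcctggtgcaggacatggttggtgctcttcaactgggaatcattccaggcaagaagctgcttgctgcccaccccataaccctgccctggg
Slc38a6: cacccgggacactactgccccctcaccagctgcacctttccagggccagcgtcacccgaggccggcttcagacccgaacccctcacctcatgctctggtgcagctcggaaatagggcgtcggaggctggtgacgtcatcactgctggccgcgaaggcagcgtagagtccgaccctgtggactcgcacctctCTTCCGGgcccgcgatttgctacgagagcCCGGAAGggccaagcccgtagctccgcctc

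Genes of transcription and signalling were among the 25, with larger spread within a genotype. Ets1, the gene of a transcription factor that lymphocyte development, ILC2s included, depends on, lay at 171, 174 and 181 CPM in WT and at 1160, 2030 and 5660 CPM in knockout libraries. All knockout libraries were above all WT libraries, but knockout replicate 3 was far above the other 2, and the log2 fold change of 4.08 (SE 0.60) had an adjusted p of 0.111 in edgeR's test. Jag1, the gene of a Notch ligand, lay at 25.2, 54.3 and 16.8 CPM in WT and at 2.27, 3.15 and 3.88 CPM in knockout libraries, with WT replicate 2 the highest (log2 fold change -3.38, SE 0.50, adjusted p = 0.111, edgeR). Tmprss13, a transmembrane serine protease gene, lay at 0.191, 0 and 0 CPM in WT and at 9.35, 13.5 and 60.2 CPM in knockout libraries, the last again replicate 3 (adjusted p = 0.105, edgeR).

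Surface receptor genes were also there. Thy1, the gene of CD90, whose allele marks the donors, lay at 3.41, 2.81 and 5.14 CPM in WT and at 17.3, 16 and 27.1 CPM in knockout libraries (log2 fold change 2.40, SE 0.38, adjusted p = 0.141, edgeR). Of the 30 genes, 7 lie on chromosome 9 with Thy1: Coro2b, Tmprss13, Ets1, Dapk2, Fam219b, Nxpe4 and Thy1 itself. Chromosome 9 holds 727 of the 12423 genes tested, and 36 of these 727 (5%) had an unadjusted p under 0.05, against 1.72% of all genes tested. Within 10 Mb of Thy1 it was 14 of 124 genes (11.3%). The donors differ in their CD90 allele in the same libraries as in Rag1 genotype, so the 2 cannot be told apart here. Around Rag1 on chromosome 2, 4 of 77 genes within 10 Mb (5.2%) had an unadjusted p under 0.05, and the groups did not overlap in 8 (10.4%, against 5.63% of all genes tested). Gm9864, called lower, lies 5.95 Mb from Rag1, and Cat, described with the antioxidant enzymes, also lies within 10 Mb of it. Itgae, the gene of CD103, the integrin chain that binds E-cadherin on epithelium, lay at 92.8, 120 and 81.4 CPM in WT and at 28.1, 43.8 and 25.6 CPM in knockout libraries (log2 fold change -1.59, SE 0.30, adjusted p = 0.324, edgeR). Igflr1, a receptor gene of the IGF-like family, was at 1.27, 3.43 and 1.15 CPM in WT and had no read in the knockout libraries, at least 12.2-fold lower, and it overlaps another gene on the same strand.

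Further genes of the 25 were enzymes and structural genes. Me3, which encodes mitochondrial malic enzyme, lay at 15.7, 15.2 and 22.8 CPM in WT and at 46.7, 57.5 and 67.5 CPM in knockout libraries. A processed transcript, not annotated as protein-coding, held 93.6% of Me3 reads in WT and 97.9% in knockout libraries. Noct, which encodes the circadian phosphatase nocturnin, lay at 881, 584 and 1090 CPM in WT and at 331, 309 and 284 CPM in knockout libraries. Sgip1, an endocytosis adaptor gene, lay at 719, 354 and 1030 CPM in WT and at 158, 166 and 149 CPM in knockout libraries. For Noct and Sgip1 the knockout libraries were tight and WT replicate 2 was the WT library nearest to them, and a processed transcript held 100% and 99.8% of Sgip1 reads in the 2 genotypes. Krt80, a keratin gene, the copine gene Cpne8 and Fam219b were lower by 2.71, 2.16 and 2.42 on the log2 scale in knockout libraries, and in all 3 the highest library was WT replicate 2. For Cpne8 too a processed transcript held most reads, 96.7% in WT and 97.8% in knockout libraries. The processed pseudogenes Gm7658, Gm8355 and Gm15459 had log2 fold changes of 5.54, -3.78 and -1.47, and their reads may be shared with related copies.

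How WT replicate 2 and knockout replicate 3 shape the comparison depended on whether 1 or both were left out. Without WT replicate 2 edgeR called 0 genes (295 at an unadjusted p under 0.05), and without knockout replicate 3 it called 0 (348). Leaving out any of the other 4 libraries also gave 0 calls, with 208 to 286 genes at an unadjusted p under 0.05. The directions of the 5 genes did not change: without WT replicate 2 their adjusted p lay between 0.0605 and 0.116, and without knockout replicate 3 it was 0.114 for each. Without both, edgeR called 28 genes (0.218%), 12 higher (0.0935%) and 16 lower (0.125%), among them all 5. The common biological coefficient of variation, the spread between replicates that edgeR estimates over all genes, was 0.422 with 6 libraries, 0.406 without WT replicate 2, 0.401 without knockout replicate 3 and 0.304 without both. Each of the other 8 pairs of 1 WT and 1 knockout library was left out in the same way, and each left 0 calls with 168 to 429 genes at an unadjusted p under 0.05, against 694 without the pair that stood apart.

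**Figure D4:**
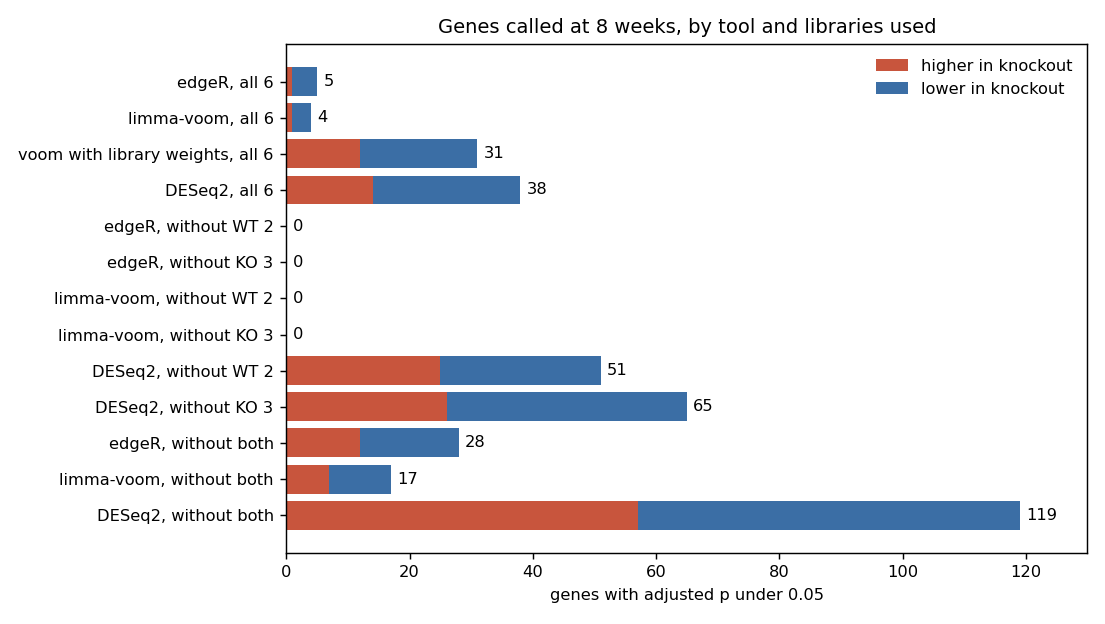
Number of genes with an adjusted p under 0.05 at 8 weeks (x axis) by tool and libraries used (rows; red higher, blue lower in knockout; WT 2 and KO 3 are the libraries that stand apart). edgeR gives 5 with all libraries, 0 without either and 28 without both, while DESeq2 gives 38, 51, 65 and 119.

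The tools differed in how they took up these libraries. DESeq2 called 51 genes without WT replicate 2, 65 without knockout replicate 3 and 119 without both, while limma-voom called 0, 0 and 17. With 1 weight per library, limma-voom called 31 genes on all 6 libraries (0.25%), 12 higher (0.0966%) and 19 lower (0.153%). Of the 30 genes described above, 29 were among the 38 called by DESeq2 and 26 among the 31 called with library weights. These calls used the same counts that picked the 30, so the overlap is not independent of that choice.

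Of the 28 genes called without both libraries, 20 were among the 30 of smallest p with all 6. The 4 libraries left are part of the 6, so this overlap is not independent either. Ets1 was one of them: its log2 fold change was 4.08 (SE 0.60) with all 6 libraries and 3.19 (SE 0.30) without both, where edgeR's adjusted p was 0.0193. Pes1, Cdk5rap1, Sgip1, Coro2b, Tmprss13, Jag1, Fam219b, Slc38a6, Cd163l1, Noct and Cpne8 were called in the same way, at adjusted p between 0.0193 and 0.049 (edgeR, without both). The libraries left out are those that deviate most in these same data, which by itself lowers the spread. These adjusted p-values may therefore be too small. Thy1, Itgae, Me3, Dapk2 and Nxpe4 were not, with adjusted p of 0.189, 0.331, 0.245, 0.136 and 0.434 on 4 libraries.

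The other 8 included genes in which the libraries that stood apart differed most from their groups. Gm12715 lay at 0.183, 87.8 and 0.226 CPM in WT and at 12.3, 18.1 and 0.306 CPM in knockout libraries. Its log2 fold change was -1.50 (SE 1.87) with all 6 libraries and 6.22 (SE 0.51, adjusted p = 0.0193, edgeR) without both. Rbm3-ps lay at 0, 27.4 and 0 CPM in WT and at 5.67, 8.6 and 0 CPM in knockout libraries, with a log2 fold change of 10.35 (SE 1.03) without both that rests on the prior count. In these pseudogenes WT replicate 2 was high and knockout replicate 3 low, against their own groups. Rps12, at 10.4, 139 and 19.3 CPM in WT and at 101, 81 and 0 CPM in knockout libraries, did the same.

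Igkc, Jchain and Lyz2, markers of other cells, were also called by edgeR without both and not with all 6. Igkc, the kappa light chain gene of B cells, lay at 8.35, 13.3 and 6.95 CPM in WT and at 55, 163 and 2.11 CPM in knockout libraries. At 20 weeks Igkc was called in the opposite direction, at 59.1, 36.9 and 49.5 CPM in WT and at 7.29, 3.05 and 3.17 CPM in knockout libraries (log2 fold change -3.42, SE 0.37, adjusted p = 0.0246, edgeR). Jchain, a plasma cell gene, lay at 0.0753, 0.195 and 0.0419 CPM in WT and at 4.1, 12.8 and 0.0727 CPM in knockout libraries. Lyz2, the lysozyme gene of myeloid cells, lay at 1.12, 4.33 and 0.93 CPM in WT and at 8.86, 11 and 3.33 CPM in knockout libraries. At 8 weeks, in all 3 genes, knockout replicates 1 and 2 were above every WT library, and replicate 3, the one left out, lay within the WT range or below it.

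Fold sizes moved as well as calls. With all 6 libraries 608 genes differed at least 2-fold, 299 higher (2.41%) and 309 lower (2.49%), and in 225 of them, 108 higher and 117 lower, the groups did not overlap. Without WT replicate 2, 378 of the 608 (62.2%) were still 2-fold in the same direction, and without knockout replicate 3, 426 (70.1%). Leaving out each of the other libraries kept 73.7 to 85%. Without both, 332 (54.6%) were kept and 49 changed direction.

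**Figure D5:**
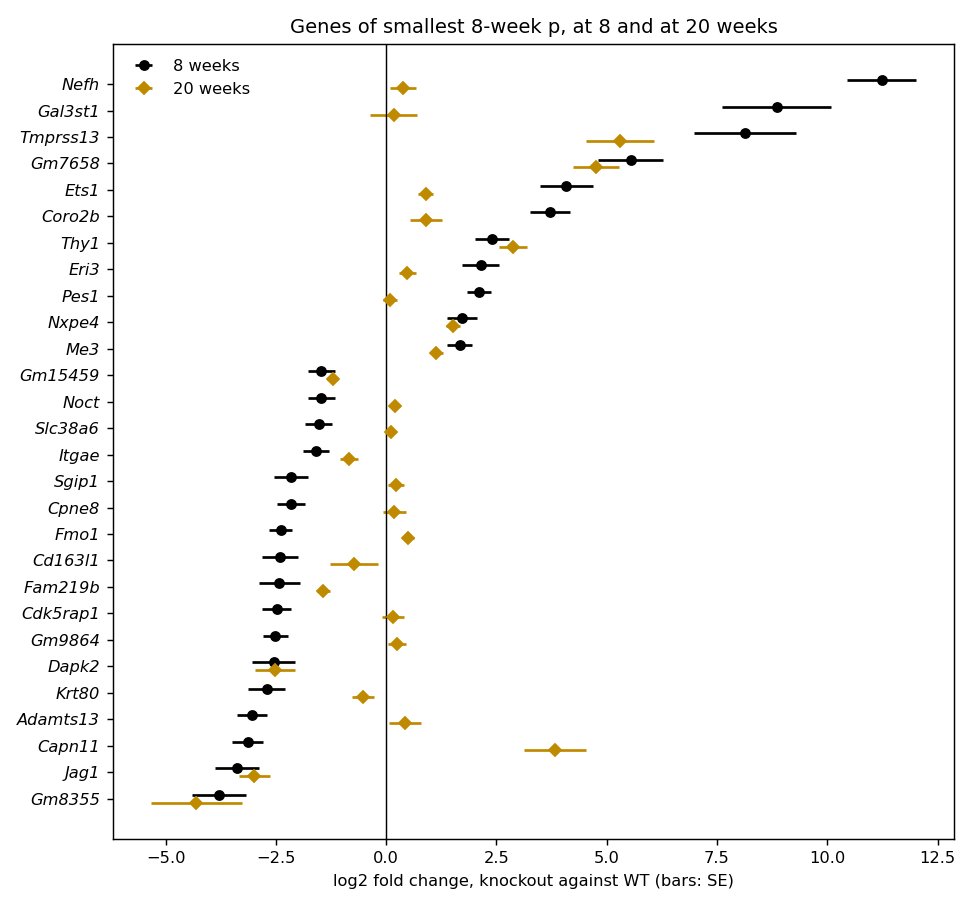
Log2 fold change, knockout against WT, of the 28 genes tested at both times among the 30 of smallest p at 8 weeks (black circles 8 weeks, ochre diamonds 20 weeks, bars SE). At 8 weeks the values of Nefh and Gal3st1 rest on the prior count since WT had no read; Capn11 is at -3.14 at 8 weeks and at 3.83 at 20 weeks, while Thy1 and Jag1 keep their side and size.

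The 6 libraries of 20 weeks share no sample with those of 8 weeks and were fitted alone with the same test, which called 11 of 13478 genes (0.0816%), 5 higher (0.0371%) and 6 lower (0.0445%). The unadjusted p was under 0.05 in 720 (5.34%), 349 higher (2.59%) and 371 lower (2.75%). Of the 5 genes called at 8 weeks, 0 were called at 20 weeks by edgeR, 1 (Nefh) had the same direction, and 2 had the opposite direction at an unadjusted p under 0.05. Nefh, absent from WT at 8 weeks, lay at 17, 11.2 and 9.72 CPM in WT and at 21.8, 15.4 and 12.4 CPM in knockout libraries of 20 weeks. Fmo1 lay at 43.6, 33.2 and 44 CPM in WT and at 58.4, 54.8 and 56.3 CPM in knockout libraries (log2 fold change 0.49, SE 0.14). Capn11 lay at 0.473, 0.485 and 0 CPM in WT and at 3.44, 7.21 and 4.69 CPM in knockout libraries (log2 fold change 3.83, SE 0.70, adjusted p = 0.223, edgeR). In all 5 genes it was the WT level of 8 weeks that lay outside the other 9 libraries, which for Fmo1 ranged from 32.9 to 58.4 CPM and for Adamts13 from 1.42 to 2.57 CPM.

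Among all 30 genes, WT at 8 weeks lay outside the range of the other 9 libraries in 24. The 30 were picked for their genotype difference at 8 weeks, so distance from the knockout libraries of 8 weeks was largely set by that choice. The same count was not made over all genes or for the other groups, so it only describes these genes. For Pes1 the 9 others ranged from 136 to 212 CPM, against 29.1 to 44.7 in WT at 8 weeks, and for Cdk5rap1 from 9.23 to 28.6 CPM, against 82.5 to 94.9. Some of the 30, partly the same genes, differed between genotypes at 20 weeks too. Of the 28 tested at 20 weeks, 19 had the same direction and 14 of these an unadjusted p under 0.05. Over all 12293 genes tested at both times, 6452 had the same direction, 372 of them at an unadjusted p under 0.05 at 20 weeks. Of the 30, 7 were called at 20 weeks in the same direction: Gm7658, Jag1, Thy1, Me3, Fam219b, Nxpe4 and Gm15459. With replicate number as a block, edgeR called 0 genes at 20 weeks (862 at an unadjusted p under 0.05), so none of these 7 calls held.

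The groups of 20 weeks did not overlap, in the direction of 8 weeks, in 12 of the 30. The share of all genes with such groups at 20 weeks was not counted, so the 12 cannot be set against it. Thy1 lay at 3.67, 4.02 and 6.44 CPM in WT and at 23.2, 36 and 43.3 CPM in knockout libraries of 20 weeks (log2 fold change 2.88, SE 0.31, adjusted p = 0.0246, edgeR). Jag1 lay at 8.09, 16.6 and 14.5 CPM in WT and at 1.26, 1.69 and 1.94 CPM in knockout libraries (log2 fold change -2.99, SE 0.35, adjusted p = 0.0269, edgeR). Ets1 lay at 1080, 1290 and 1070 CPM in WT and at 2620, 2090 and 1690 CPM in knockout libraries, a smaller gap than at 8 weeks (log2 fold change 0.90, SE 0.17, adjusted p = 0.306, edgeR). The test of the difference between the times called 7 of 13831 genes (0.0506%), 2 more positive (0.0145%) and 5 more negative (0.0362%) at 8 weeks (2 with the replicate block), and Ets1 was not among them (3.19 on the log2 scale, adjusted p = 0.219, edgeR).

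The remaining fixed lists are described by counts. Over all genes tested, 1.72% had an unadjusted p under 0.05 and 5.63% had groups that did not overlap. In no list did edgeR call a gene. Of 18 tested genes of type 2 cytokines and effectors (median 0.09), 2 were higher and 2 lower at an unadjusted p under 0.05. Tph1, which encodes the rate-limiting enzyme of serotonin synthesis, lay at 7.36, 7.07 and 4.72 CPM in WT and at 31.8, 14.9 and 12.8 CPM in knockout libraries (log2 fold change 1.64, SE 0.42, adjusted p = 1, edgeR). Lif, the gene of leukaemia inhibitory factor, was at 7.46, 7.59 and 10.3 CPM in WT and at 17.6, 17.3 and 11.3 CPM in knockout libraries. Il2, a T cell growth factor gene, and Tnfsf8, the CD30 ligand gene, were on the low side, with log2 fold changes of -1.92 (SE 0.63) and -1.15 (SE 0.38). None of these 4 had overlapping groups, and each had an adjusted p of 1 in edgeR's test.

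In ribosome biogenesis, 19 genes were tested with a median of 0.24, against 0.02 over all genes, and 2, Pes1 and Utp20, were on the high side at an unadjusted p under 0.05 and 0 on the low side, against 0.781% and 0.942% of all genes tested. The groups did not overlap in 4, all higher in knockout libraries, against 2.88% of all genes tested in that direction. Besides Pes1 these were Wdr12, whose product binds that of Pes1 (89.1, 81.4 and 89.4 CPM in WT against 97.6, 107 and 139), Utp20 (13.1, 10.1 and 10.8 against 16.7, 14.7 and 29.7) and Polr1a, the large subunit of RNA polymerase I (21.6, 25.6 and 19 against 30.3, 30.2 and 29.4). Wdr12 and Polr1a had an unadjusted p of 0.119 and 0.107 in edgeR's test. Bop1, of the same list, lay at 77.4, 79.1 and 53.5 CPM in WT and at 88.6, 74.4 and 40.4 CPM in knockout libraries. Its groups overlapped (log2 fold change -0.04, SE 0.33). At 20 weeks the median of the list was 0.05. Of 22 ribosomal protein genes, 0 were higher and 1, Rps6, lower at an unadjusted p under 0.05 (413, 1010 and 576 CPM in WT against 363, 397 and 337).

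Among 22 migration and residency genes (median -0.09), 3 had an unadjusted p under 0.05, 1 higher and 2 lower. The lower ones were Itgae and the chemokine receptor gene Ccr6, which lay at 12.7, 8.1 and 3.3 CPM in WT and at 3.77, 1.06 and 0.259 CPM in knockout libraries, where the groups overlapped. Of 15 Notch pathway genes Jag1 was the only one at an unadjusted p under 0.05, and of 12 ETS factors Ets1 was. Of 18 antioxidant enzymes 1 was, Cat, the catalase gene, at 161, 181 and 164 CPM in WT and at 110, 109 and 103 CPM in knockout libraries (log2 fold change -0.65, SE 0.21, adjusted p = 1, edgeR). Of 25 immediate early and MAPK feedback genes Spry1, a feedback inhibitor gene, was higher, and of 18 cholesterol synthesis genes Sc5d, a sterol desaturase gene, was lower.

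No gene reached an unadjusted p under 0.05 in IL-33 signalling and NF-kB (21 tested, median -0.05), gamma chain cytokines and STAT5 (16, median 0), costimulatory and inhibitory receptors (17, median -0.13), recombinase and end joining (15, median 0.17), p53 targets (17, median 0.20), MHC class II (13, median -0.19), heat shock and unfolded protein response (23, median 0.09) or glycolysis (17, median 0.08). Some list medians moved without knockout replicate 3: the median of interferon-stimulated genes went from 0.02 to 0.34, that of cell cycle genes from 0.09 to -0.17, and that of MHC class II genes from -0.19 to 0.01. The summed level of the actin list was 253000 CPM in knockout replicate 3, through Actb, and 51100 to 106000 CPM in the others, while the median log2 fold change of the list was 0.08.

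Markers of other cell types differed between libraries. Bulk RNA cannot tell fewer cells of a type from less RNA per cell. Of 16 B cell markers found, 13 were tested, and 4, Ebf1, Fcer2a and Igkc among them, were higher and 0 lower at an unadjusted p under 0.05, with a median of 0.96. Knockout replicate 2 was the highest library for these 3 genes. Ebf1, a B cell transcription factor gene, lay at 0.24, 1.17 and 1.13 CPM in WT and at 1.84, 6.43 and 3.58 CPM in knockout libraries. The summed level of the list, led by Cd74, was 7770 to 17200 CPM in WT and 7120 to 11300 CPM in knockout libraries, and the B cell factor gene Pax5 was at 0 in 4 libraries and at most 0.617 CPM in the others. At 20 weeks the median was -0.70. The part of B cells in any result was not tested.

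Of 14 T cell markers tested (median -0.27) Lck, the gene of a T cell receptor kinase, was lower at an unadjusted p under 0.05, and the summed level was 1580 to 1830 CPM in WT and 1100 to 1520 CPM in knockout libraries. Cd4 and Cd8a lay under 1 CPM in all 6. Of 8 NK and ILC1 markers (median -0.66) Klrk1, the gene of the receptor NKG2D, was lower (13.1, 14.5 and 15.1 CPM in WT against 7.61, 6.81 and 4.91). The sum of that list was 1290 to 2260 CPM in WT and 935 to 1510 CPM in knockout libraries, led by Ccl5, with Eomes at 0 in each knockout library and at most 0.318 CPM in WT. Of 8 ILC3 markers (median -0.43; sums 204 to 477 and 156 to 210 CPM) Nrp1 and Ccr6 were lower, and the cytokine gene Il17f stood at 328 CPM in WT replicate 2 against 47.6 to 108 in the others. Of 6 macrophage markers tested (median 0.42; sums 8.21 to 26 and 13.7 to 24.1 CPM) Lyz2 was higher, and Cd14 and Fcgr1 were at 0 in all 6. The neutrophil genes S100a9 and Ly6g, the keratinocyte genes Krt5 and Krt1, the eosinophil gene Epx and the lymphatic gene Lyve1 were at 0 in all 6 libraries. Other members of their lists, such as Cxcr2, Sfn, Ccr3 and Pecam1, had reads in all 6. The neutrophil list summed to 3.73 to 9.96 CPM and the keratinocyte and epithelium list to 14.9 to 26.9 CPM. The mast cell, basophil and eosinophil list summed to 19.3 to 35.9 CPM. Pecam1 held most of the stroma and endothelium sum in each library. Of 5 tested markers of that list (median -0.05) 1 was higher and 0 lower at an unadjusted p under 0.05. Pdgfrb lay at 3.04, 3.64 and 5.5 CPM in WT and at 7.26, 8.39 and 7.39 CPM in knockout libraries. Of 4 erythroid and platelet markers (median -0.31) 0 were higher and 1 lower. Hba-a1 lay at 6.82, 17.3 and 8.81 CPM in WT and at 6.28, 4.23 and 2.43 CPM in knockout libraries. Of 4 plasma cell and 6 dendritic cell markers tested, 0 reached that p. The part of these cells in the results was not tested.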

How the data were processed

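RNA-seq of sorted ILC2s was compared between 3 knockout and 3 WT libraries of 8 weeks. The authors ran sailfish 0.6.3 on Ensembl 76 transcripts with a k-mer length of 20, per the file headers, and deposited for each transcript an expected count and a TPM value. Other tools named in the notes of the submitters (featureCounts 1.4.5, Subread, STAR 2.0.4b, bcl2fastq) have no stated role in these files. Per the labels' protocols, ribosomal RNA was removed and cDNA was primed with random hexamers and amplified for 12 cycles; such copies are not independent molecules, so floors of 3 reads cover counting error only. A k-mer method divides the reads of paralogs, pseudogenes and overlapping genes by its model.

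Of 86127 transcripts, 83739 (97.2%) were matched by identifier to GENCODE M21 and summed to 29542 genes; the rest held 1.01% to 1.48% of reads in these 6 libraries. Autosomal counts were rounded, filtered with filterByExpr, scaled by TMM and fitted with edgeR 4.0.16 (quasi-likelihood, Benjamini-Hochberg adjustment over all genes tested, R 4.3.3). Levels near 0 were floored as stated. The script was tested on simulated data. There edgeR recovered 3.06% of 98 genes changed by 1 log2 unit and 47.4% of 97 genes changed by 2. Most 2-fold changes were thus missed in that simulation. DESeq2 1.42.0, limma 3.58.1 (voom, and 1 weight per library), other scalings and filters, TPM-scaled counts made from the deposited TPM, libraries left out, a replicate block and the thread number in the file headers (24 in WT replicate 3 and knockout replicate 2, 8 in the other 4) were the alternatives. Deviations of same-numbered libraries from their group means correlated across genes at 0.27, 0.189 and 0.101, against -0.212 to 0.054 for the other 6 pairs. Same-numbered samples may therefore be paired, though the labels do not state what a number stands for. The main fits did not pair them, so their p-values and calls ignore any such pairing. The replicate block was run only as an alternative, and edgeR then called 0 genes at 8 weeks.

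Named were the 30 genes of smallest p, the genes of the marking and type 2 programme fixed by name, up to 4 genes a list by p, the 10 genes farthest above and below in each library that stood apart, up to 3 markers a cell type by level, and up to 10 genes called only without those libraries. B230118H07Rik, 4930556J24Rik, Isg15, Mki67, Pax5, Eomes and some other markers were named after their values were seen. The comparison, the lists and the members were chosen with earlier results of these data known, so they are described by counts and medians with no set test. Some genes were left out and are not reported here.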

Additional observations from a re-analysis of the deposited data

Results flagged for a closer look

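The genotype difference of 8 weeks minus that of 20 weeks was tested on all 12 libraries with edgeR, which called 7 of 13831 genes (0.0506%); 6 of them are genes named above, and the seventh, Hectd4, was named after its value was seen. For Nefh the difference was 11.16 (adjusted p = 0.00101), a value that rests on the prior count because WT had no read at 8 weeks. For Fmo1 it was -2.86 (adjusted p = 0.00101), for Gm9864 -2.74 and for Capn11 -6.92 (adjusted p = 0.0027 each), and for Adamts13 -3.47 (adjusted p = 0.00516). For Pes1 it was 2.03 (adjusted p = 0.046). With the replicate block 2 of the 7 were called, Nefh and Fmo1. All 6 genes, Pes1 included, had been picked for their 8-week value, so the test describes them and is not independent. Its libraries are those of both single-time comparisons.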

How the results depend on the processing

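The 5 genes called at 8 weeks kept their direction under every alternative run. The count of called genes was 6 with RLE or upper quartile factors, robust fitting or a 1 CPM filter, 4 with limma-voom and 7 with protein-coding genes. It was 38 with DESeq2, 31 with limma-voom library weights, 12 without a filter, 26 with all 12 libraries, 8 with all chromosomes, and 0 with the replicate block, with the thread number as covariate (167 at an unadjusted p under 0.05) and with TPM-scaled counts (237). Without both libraries that stand apart it was 28, and then 119 with DESeq2, 17 with limma-voom and 21 with protein-coding genes. Leaving out 1 library, or another pair, gave 0 to 65 (edgeR and limma-voom 0 each; DESeq2 51 without WT replicate 2 and 65 without knockout replicate 3). The block was not tried on the 4-library fits. At 20 weeks 11 calls became 73 with DESeq2, 0 with the replicate block and 0 to 7 with 1 library left out. For the interaction, 7 calls became 26 with DESeq2, 16 without both libraries, 2 with the replicate block and 11 without knockout replicate 3. The replicate block ended the call of each gene called at 8 weeks.

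Log2 fold changes near 0 changed sign. Ptprc was at 0.02 with limma-voom, 0.02 with the replicate block, 0.00 with the thread covariate and -0.34 to 0.30 without 1 library. Il1rl1 was at -0.19 without both libraries that stand apart (-0.20 with DESeq2, -0.15 with limma-voom, -0.20 with protein-coding genes) and at -0.12 to 0.34 without 1. Icos was at -0.09, -0.10, -0.07 and -0.10 in the same order, and at -0.26 to 0.37 without 1. Il5 was at -0.01 with limma-voom and with the replicate block and at -0.15 to 0.21 without 1 library. Areg was at 0.01 without a filter, 0.02 with the replicate block, 0.00 with the thread covariate and -0.19 to 0.14 without 1. Gata3 was at -0.07 to 0.47 and Klrg1 at -0.06 to 0.27 without 1. Gm12715 was at 2.70 with limma-voom, 5.35 with library weights, 0.91 with the replicate block, -2.22 to 5.65 without 1 library (5.65 without WT replicate 2), and 6.22, 6.26 (DESeq2) and 6.06 (limma-voom) without both. Rbm3-ps was at 3.99, 6.80, 1.47 and -1.65 to 9.64 (9.64 without WT replicate 2) in the same settings and at 10.35, 9.60 and 8.10 without both. The cause was not tested. Fits without single pairs of libraries other than the 2 that stand apart, fits by DESeq2 and limma-voom on fewer libraries and fits on protein-coding genes were chosen after seeing the data. Depth limits genes near the floor of 0.196 CPM in WT and 0.159 CPM in knockout libraries.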
